A study of Mus musculus with 4 samples.

Results

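The S100 genes described here belong to a family of small, mostly calcium-binding proteins. The list held 8 genes: S100a1, S100a4, S100a6, S100a8, S100a9, S100a10, S100a11 and S100a13. Members were taken as every probe set whose single gene symbol in the platform's probe table was on that list, without regard to its signal. This gave 9 probe sets for 7 of the 8 genes, out of 12393 genes measured in all. S100a11 had no probe set naming it alone and is not analysed here. S100a1 and S100a10 had more than 1 probe set each, and the other 5 genes had 1.

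Each S100 protein carries a pair of EF-hand loops, the helix-loop-helix folds that hold calcium in most of the family. Most work as dimers that expose a binding surface once calcium is bound. S100a8 and S100a9 form calprotectin, a zinc- and manganese-binding complex that fills the cytosol of neutrophils and monocytes and acts as an alarm signal once released. S100a4 binds non-muscle myosin and is known from motile cells and fibroblasts, S100a6 (calcyclin) is known from dividing cells, and S100a10 is the partner of annexin A2. S100a13 takes part in the export of proteins that lack a signal peptide, and S100a1 is best known from heart and skeletal muscle. In the intestine, calprotectin is measured in stool as a marker of inflammation.

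RNA came from myeloid cells of C57BL/6J mice, a common laboratory strain. The cells were taken from the lamina propria of the large intestine, the layer under the gut lining, and the labels name no treatment, allele or transgene. The 4 populations were separated by surface proteins, and each was measured on 1 array. The CD11b+ cells carried CD11b but not CD11c, and the CX3CR1high macrophages carried CD11c and CD11b with much CX3CR1. The CX3CR1- cells carried CD11c and CD11b but not CX3CR1, and the CD11chigh DCs (dendritic cells) carried much CD11c but not CD11b. Age, sex and the number of mice behind each array are not given in the sources used here. Of the gate genes, Itgae, which encodes CD103, stood at 4962 in the CD11chigh DCs and at 39.2 to 374 elsewhere, and Cx3cr1 was highest in the CX3CR1high macrophages, at 1499. Itgax, which encodes CD11c, stood at 1864 in the CD11b+ cells although they were gated as lacking CD11c, and at 1826 in the CX3CR1high macrophages.

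Values are signals on the authors' linear intensity scale. The trimmed mean was about equal on all 4 arrays, 500.3, and the median over all probe sets ran from 88.5 to 110.2. Signals below 103, the pooled median of all non-control probe sets, were raised to that floor before a ratio was taken. A ratio with 1 side below the floor is a lower bound, and with both sides below there is none. Genes at least 2-fold apart were called higher or lower. With 1 array per population there is no replicate, no test and no error over mice, so precision is limited by how few arrays there are. The only spread at hand is that between different probe sets for a gene, whose SD was 0.31 to 0.52 log2 units over the 6 pairs of populations, under the limit of 1 for a call. Each probe set binds its RNA with its own strength, so signals are compared between populations and not between genes.

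The S100 genes fell into patterns that differed from each other. S100a8 and S100a9 were high in the CD11b+ cells, lower in the CX3CR1high macrophages and below the floor in both other populations. S100a4, and to a smaller degree S100a6, had its lowest signal in the CX3CR1high macrophages. S100a13 was lowest in the CX3CR1- cells, and S100a1 and S100a10 stayed within 2-fold across all 4 populations. Of the 7 genes, 5 were at least 2-fold apart in some pair of populations, and 5 were at or above the floor on every array. The shares of all genes that did so were not computed, so neither count is read as a trait of the family. The CD11b+ cells held the highest signal of 5 of the 7 genes (S100a6, S100a8, S100a9, S100a10 and S100a13), and of 23.4% of the 7847 genes that reached the floor on some array. For S100a6, S100a10 and S100a13 the lead over the next population was under 2-fold, at 1.13-fold, 1.21-fold and 1.33-fold. The other S100a10 probe set was highest in the CX3CR1- cells. The count is thus not read as a trait of the CD11b+ cells. In bulk RNA, fewer cells with a transcript and less of it per cell cannot be told apart.

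**Figure D1:**
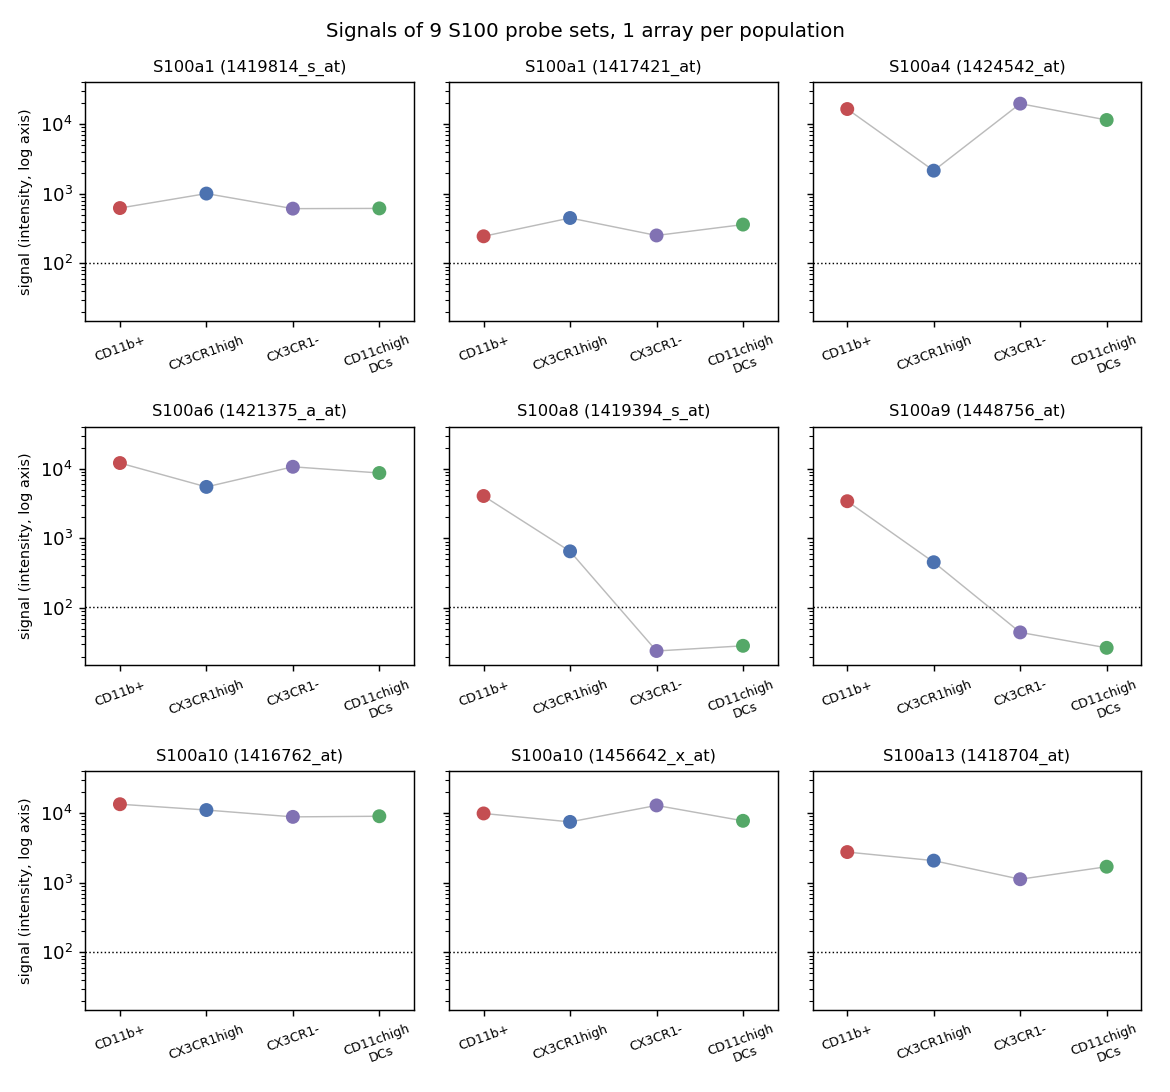
Signal in intensity units on a log axis for each of the 9 S100 probe sets, with 1 point per population and the floor of 103 as a dotted line; lines only join the points of a panel. S100a8 and S100a9 lie below the floor in the CX3CR1- cells and the CD11chigh DCs, and S100a4 dips to 2153 in the CX3CR1high macrophages.

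Between the CD11b+ cells and the CX3CR1high macrophages, 4 of 7 S100 genes were at least 2-fold higher in the CD11b+ cells and 0 were lower. These were S100a4, S100a6, S100a8 and S100a9. The background over 7512 genes was 5.83% higher and 4.66% lower by the same limit. The median log2 ratio was 1.14 over the S100 genes and 0.02 over all genes.

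Between the CD11b+ cells and the CX3CR1- cells, 3 of 7 were higher in the CD11b+ cells (S100a8, S100a9 and S100a13) and 0 were lower. Over all 7377 genes with a ratio these shares were 5.19% and 3.55%, and the medians were 0.60 for the S100 genes and 0.06 for all genes. Between the CD11b+ cells and the CD11chigh DCs, 2 of 7 were higher (S100a8 and S100a9) and 0 were lower. Over all 7483 genes with a ratio the shares were 17% and 10.4%, so the count of S100 genes was nearer to the background there, and the medians were 0.57 and 0.07.

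The CX3CR1high macrophages had S100a8 and S100a9 higher and S100a4 lower, both against the CX3CR1- cells and against the CD11chigh DCs. Over all genes, 8.56% of 7462 were higher and 6.54% lower than in the CX3CR1- cells, and 17.4% of 7480 were higher and 10.2% lower than in the CD11chigh DCs. The median log2 ratio of the S100 genes was 0.72 over the CX3CR1- cells and 0.30 over the CD11chigh DCs, against 0.02 for all genes in both. Between the CX3CR1- cells and the CD11chigh DCs, 5 S100 genes had a ratio and 0 were called in either direction, with 13.7% of 7266 genes higher and 8.7% lower. These 6 comparisons share arrays, so they are not independent of each other.

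**Figure D2:**
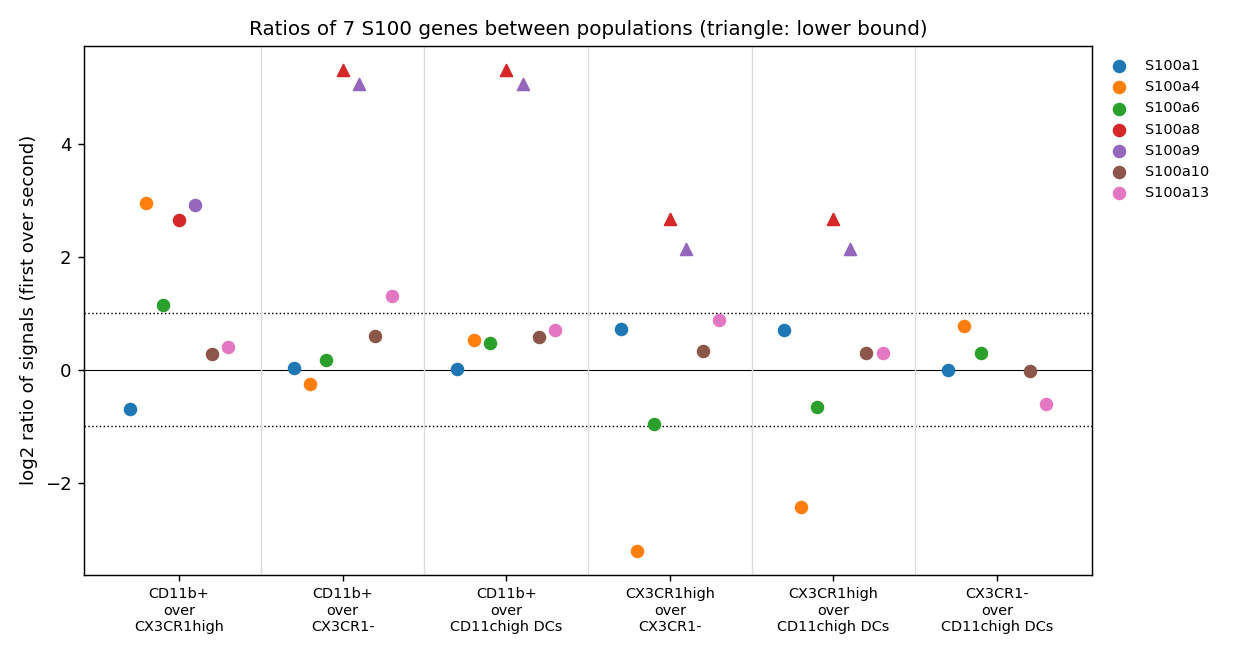
The log2 ratio of signals of the 7 S100 genes in each of the 6 pairs of populations, with the 2-fold limits at -1 and 1 as dotted lines; circles are measured ratios and triangles lower bounds. S100a8 and S100a9 lie above 2 in the first 5 pairs, and S100a4 lies at -3.20 and -2.42 where the CX3CR1high macrophages are set against the CX3CR1- cells and the CD11chigh DCs.

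The calprotectin genes S100a8 and S100a9 had the widest range of the family. Their promoters are shown because both genes were above the floor on the same arrays, the CD11b+ and CX3CR1high ones. The lines hold the 250 bases before each gene's start, 5′ to 3′ on the gene's own strand, from RefSeq on GRCm38.p6. S100a8 is at chr3:90668821-90669070 on the plus strand and S100a9 at chr3:90695722-90695971 on the minus strand. Capitals mark matches, on either strand, to the TATA box (TATAAA), a C/EBP core (TTNNGNAA), an ETS or PU.1 core (AGGAAGT), an AP-1 site (TGANTCA) or a GC box (GGGCGG).
S100a8: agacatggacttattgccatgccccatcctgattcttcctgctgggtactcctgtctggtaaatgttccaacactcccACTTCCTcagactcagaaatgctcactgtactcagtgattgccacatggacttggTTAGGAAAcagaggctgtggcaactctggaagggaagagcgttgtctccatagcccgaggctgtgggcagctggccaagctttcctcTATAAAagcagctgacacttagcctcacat
S100a9: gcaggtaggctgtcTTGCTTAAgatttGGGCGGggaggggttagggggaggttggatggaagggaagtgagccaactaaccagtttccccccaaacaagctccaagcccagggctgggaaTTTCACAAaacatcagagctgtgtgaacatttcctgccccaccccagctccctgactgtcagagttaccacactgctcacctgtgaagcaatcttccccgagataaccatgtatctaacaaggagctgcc

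S100a8 had a TATA match that began 30 bases before its start, a C/EBP match at 117 and an ETS match at 172. S100a9 had C/EBP matches at 130 and 236 bases before its start and a GC box match at 223. None of these matches overlapped another. Of 32851 promoter windows of this length, 12.4% held the TATA letters, 36.8% the C/EBP letters, 7.69% the ETS letters, 6.75% the AP-1 letters and 32.7% the GC box letters. Among the 7 listed genes with an entry, the C/EBP letters were in S100a8 and S100a9 and in no other, and the TATA letters in S100a4 and S100a8. With 36.8% of all windows holding the C/EBP letters, that count is near the background. These are matches of letters in a short window, and no binding was measured.

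S100a8 had a signal of 4058 in the CD11b+ cells, 651 in the CX3CR1high macrophages, 28.6 in the CD11chigh DCs and 24.1 in the CX3CR1- cells. It was thus highest in the CD11b+ cells and below the floor in both populations at the low end, whose order has no meaning. The CD11b+ cells were 6.24-fold above the CX3CR1high macrophages and at least 39.4-fold above each of the others. Over all genes with a ratio, 11 of 7512 stood at least this far above the CX3CR1high macrophages, 2 of 7377 at least this far above the CX3CR1- cells and 8 of 7483 at least this far above the CD11chigh DCs, S100a8 counted in each. The CX3CR1high macrophages in turn were at least 6.32-fold above the CX3CR1- cells and the CD11chigh DCs. These bounds rest on the floor: with it at the 75th percentile of all signals, 453, the log2 bound of the CX3CR1high macrophages over both was 0.52 for S100a8, and neither S100a8 nor S100a9 reached the limit there. The S100a8 probe set is of the _s_at type, which can bind more than 1 transcript.

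S100a9 stood at 3416 in the CD11b+ cells, 454 in the CX3CR1high macrophages, 44.5 for the CX3CR1- cells and 26.7 in the CD11chigh DCs. Again the CD11b+ cells were high, the CX3CR1high macrophages lay between, and the CX3CR1- cells and CD11chigh DCs were below the floor. The ratio of the CD11b+ cells was 7.53-fold over the CX3CR1high macrophages and at least 33.2-fold over both others. The CX3CR1high macrophages were at least 4.41-fold above those others. With each gene's floored log2 signals centred on their mean over the 4 arrays, S100a8 and S100a9 differed by a root mean square of 0.21, the smallest of the 21 pairs among the 7 genes. Both were set to the same floor on 2 of the 4 arrays, so this likeness rests on the CD11b+ and CX3CR1high arrays. The next were S100a10 with S100a13 at 0.27 and S100a1 with S100a10 at 0.34, and the largest was S100a4 with S100a8 at 2.68.

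Marker genes of blood cells that carry calprotectin were read beside this pattern. Of 10 neutrophil markers measured, 7 reached the floor in the CD11b+ cells, 2 in the CX3CR1high macrophages, 2 for the CX3CR1- cells and 0 in the CD11chigh DCs. Of all genes, 56.9%, 57.2%, 55.8% and 52.7% did so in this order. The count in the CD11b+ cells was thus near that share, and the other counts were under it. Elane, Mpo and Cxcr2, which encode neutrophil elastase, myeloperoxidase and a chemokine receptor, were below the floor on all 4 arrays, Cxcr2 at 73.5 in the CD11b+ cells. The granule genes Ngp (222), Mmp8 (215) and Lcn2 (310) were above it in the CD11b+ cells alone. Another granule gene, Mmp9, had 878 in the CX3CR1high macrophages, 771 for the CX3CR1- cells, 767 for the CD11b+ cells and 19.6 in the CD11chigh DCs. Between the CD11b+ cells and the CX3CR1high macrophages 3 of 7 neutrophil markers with a ratio were higher and 0 lower. Over all genes 5.83% were higher and 4.66% lower, and the median of the markers was 0.37 on the log2 scale. All but Mmp9 and Csf3r had a ratio only because they passed the floor in the CD11b+ cells, so those could not be lower. In the CD11b+ cells Mmp9 was 1.14-fold lower and Csf3r 1.29-fold higher. The summed signal of the 10 markers was 3012 in the CD11b+ cells, 1992 in the CX3CR1high macrophages, 1440 for the CX3CR1- cells and 368 in the CD11chigh DCs. Csf3r, the receptor for granulocyte colony-stimulating factor, stood at 1149, 888, 380 and 81.9 in this order.

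Of 8 monocyte markers measured, 6 were at least 2-fold higher in the CD11b+ cells than in the CX3CR1high macrophages and 0 were lower, at a median of 2.40 on the log2 scale, against 5.83% and 4.66% of all genes. Their summed signal was 51373 in the CD11b+ cells, 23023 in the CX3CR1high macrophages, 13471 for the CX3CR1- cells and 12318 in the CD11chigh DCs. Chil3, a chitinase-like protein of monocytes and macrophages, had 13237, 798, 53.3 and 3.26 in this order, below the floor on the same arrays as S100a8 and S100a9. Haptoglobin, Hp, was at 1753 in the CD11b+ cells and below the floor elsewhere, so among the monocyte markers it could not be lower. Other monocyte markers had other courses. F13a1, a coagulation factor subunit with the widest range of the list, was highest in the CX3CR1high macrophages at 15238, with 8148 for the CD11b+ cells, 1902 for the CX3CR1- cells and 57.4 for the CD11chigh DCs. Fn1, fibronectin, had 8235, 1753, 5494 and 274 in the order of the sums, and Plac8 14116, 2804, 4087 and 11062. The part that neutrophils or monocytes among the sorted cells may have in the S100a8 and S100a9 signals was not tested. Of 10 fibroblast markers, 10 were higher in the CD11b+ cells than in the CX3CR1high macrophages, with a median log2 ratio of 1.99. Mfap4 was below the floor in the CX3CR1high macrophages, so it could not be lower. The summed signal of the fibroblast markers was 68420 in the CD11b+ cells, against 17112, 23616 and 5298. That of 11 epithelial markers was highest in the CX3CR1high macrophages, 19170 against 3151, 7925 and 4619. In the same pair 10 of 10 epithelial markers with a ratio were lower in the CD11b+ cells, at a median of -2.56. Krt20 was below the floor in the CD11b+ cells, so it could not be higher there.

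The remaining marker lists gave these values for the CD11b+ cells over the CX3CR1high macrophages. Over all genes 5.83% were higher and 4.66% lower in that pair. With so few genes per list, a count of 1 cannot be told from these shares. Of 4 B and plasma cell markers with a ratio 1 was higher, Pou2af1 (921 against 294), and 0 were lower, at a median of 0.70 on the log2 scale. Cd79a was below the floor in the CX3CR1high macrophages, so it could not be lower. Jchain, the joining chain of secreted antibodies, stood at 34144 against 18478. Of 3 eosinophil markers with a ratio 1 was higher, Alox15 (530 against 78.5), at a median of 0.98. All 3 were below the floor in the CX3CR1high macrophages, so they could not be lower. The eosinophil sum was highest in the CX3CR1- cells, at 1758. Of 10 mast cell markers 9 were below the floor on all arrays, where 7847 of all 12393 genes reached it on some array. Hdc, which makes histamine and is not limited to mast cells, stood at 2116 against 262. Of 4 CD103-type dendritic cell markers with a ratio 1 was higher, Cd24a (4332 against 1469), at a median of -0.33. The part of these cells in the S100a8 and S100a9 signals was not tested.

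**Figure D3:**
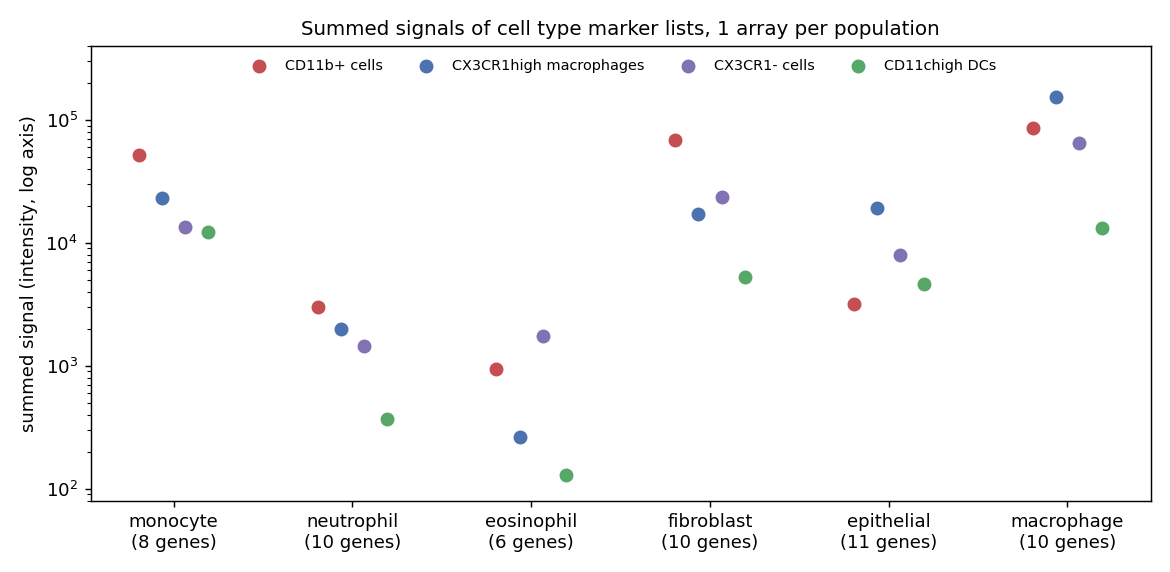
Summed signals, in intensity units on a log axis, of 6 lists of cell type markers, with 1 point per population. Monocyte, neutrophil and fibroblast sums are highest in the CD11b+ cells, and epithelial and macrophage sums in the CX3CR1high macrophages.

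S100a4, the myosin-binding member also called Fsp1, set the CX3CR1high macrophages apart from the 3 other populations. Its promoter is shown because it had the largest measured ratio between the CX3CR1high macrophages and the CX3CR1- cells in the family. The line gives the 250 bases before its start at chr3:90603520-90603769, plus strand, from RefSeq on GRCm38.p6, with the only match to the searched motifs, a TATA box that began 31 bases before the start, in capitals.
S100a4: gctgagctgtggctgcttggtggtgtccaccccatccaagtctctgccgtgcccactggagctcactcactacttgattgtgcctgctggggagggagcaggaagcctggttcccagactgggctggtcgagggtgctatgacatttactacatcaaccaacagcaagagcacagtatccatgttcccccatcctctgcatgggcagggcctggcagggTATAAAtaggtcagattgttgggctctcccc

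S100a4 had signals of 19758 in the CX3CR1- cells, 16540 in the CD11b+ cells, 11507 in the CD11chigh DCs and 2153 in the CX3CR1high macrophages. The 3 higher populations were not set apart from their neighbours in this order, with ratios of 1.19-fold and 1.44-fold. The step down to the CX3CR1high macrophages was 5.34-fold from the CD11chigh DCs, 7.68-fold from the CD11b+ cells and 9.18-fold from the CX3CR1- cells. At least as low against the CX3CR1- cells were 13 of 7462 genes, and against the CD11chigh DCs 93 of 7480. Of the genes higher in the CD11b+ cells than in the CX3CR1high macrophages, 6 of 7512 were as far apart as S100a4, which is counted among them.

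Markers of other cells that can carry S100a4 were read beside it. Fbln1, Col6a1, Col1a2 and Dcn, which encode matrix proteins, were all highest in the CD11b+ cells and lowest in the CD11chigh DCs. The 10 fibroblast markers had a median log2 ratio of -0.52 in the CX3CR1high macrophages over the CX3CR1- cells, with 0 of 9 called in either direction, where that of S100a4 was -3.20. In the CD11chigh DCs, where the summed fibroblast signal was lowest (5298), S100a4 was at 11507. Among macrophage markers, 9 of 10 higher and 0 lower in the CX3CR1high macrophages compared with the CX3CR1- cells, where 8.56% and 6.54% of all genes were. Over all 12393 genes measured, 7847 reached the floor on some array. T and NK cell markers, which can also accompany S100a4, had 6 of 8 measured below the floor on all arrays and summed signals of 351 to 606. Cd2, an adhesion receptor with the widest range of them, had 326 in the CX3CR1- cells, 191 in the CD11b+ cells, 106 in the CX3CR1high macrophages and 60.4 in the CD11chigh DCs. It was 3.09-fold lower in the CX3CR1high macrophages against the CX3CR1- cells, the direction of S100a4. The part of fibroblasts or of T and NK cells in the S100a4 signal was not tested.

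The genes of S100a4 partners in the cytoskeleton were compared next. Myh9, the heavy chain of non-muscle myosin to which S100a4 binds, had 14021 in the CX3CR1- cells, 9623 in the CD11b+ cells, 8127 in the CD11chigh DCs and 5973 in the CX3CR1high macrophages. This is the same order of populations as for S100a4, in a narrower range. Myh9 was 2.35-fold lower in the CX3CR1high macrophages compared with the CX3CR1- cells, and under 2-fold apart in the other pairs. Iqgap1, a scaffold of the actin cortex, stood at 14717 in the CD11b+ cells, 14384 for the CX3CR1- cells, 8652 in the CX3CR1high macrophages and 6101 in the CD11chigh DCs. It was 2.41-fold and 2.36-fold above the CD11chigh DCs in the CD11b+ cells and the CX3CR1- cells.

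S100a6, calcyclin, shared with S100a4 its lowest signal in the CX3CR1high macrophages, in a narrower range. Its signals were 12078 in the CD11b+ cells, 10667 for the CX3CR1- cells, 8686 in the CD11chigh DCs and 5481 in the CX3CR1high macrophages. No step between neighbours reached 2-fold, the largest being 1.58-fold from the CD11chigh DCs to the CX3CR1high macrophages. The ratio of the CD11b+ cells over the CX3CR1high macrophages was 2.20-fold, and 331 of 7512 genes were at least as far apart. Against the CX3CR1- cells the CX3CR1high macrophages were lower by 1.95-fold, just under the limit. The centred profiles of S100a4 and S100a6 differed by a root mean square of 0.86. By this measure S100a6 was closer to S100a10 (0.48), S100a13 (0.66) and S100a1 (0.72) than to S100a4. The S100a6 probe set is of the _a_at type, which covers several transcripts of a gene.

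Partners of S100a6 had other courses. Cacybp, the calcyclin-binding protein of a ubiquitin ligase complex, had 1946 in the CD11chigh DCs, 1533 in the CX3CR1high macrophages, 909 for the CD11b+ cells and 845 for the CX3CR1- cells. Sugt1, an HSP90 co-chaperone that binds S100a6, was likewise highest in the CD11chigh DCs, at 2186 against 1247, 877 and 846 in the same order. Both were over 2-fold higher in the CD11chigh DCs than in the CD11b+ cells and the CX3CR1- cells. Of all 7 measured intracellular targets of S100 proteins, 0 were called between the CD11b+ cells and the CX3CR1high macrophages, and 1, Myh9, between the CX3CR1high macrophages and the CX3CR1- cells, with median log2 ratios of 0.21 and 0.01. Both counts are near the background, which was 5.83% higher and 4.66% lower in the first pair and 8.56% and 6.54% in the second.

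S100a10, the light chain that pairs with annexin A2 and helps to bind plasminogen at the cell surface, was near even. Its first probe set gave 13478 in the CD11b+ cells, 11119 in the CX3CR1high macrophages, 9052 in the CD11chigh DCs and 8867 in the CX3CR1- cells. A second, of the _x_at type that can bind unrelated transcripts, gave 9932, 7509, 7783 and 12950 in the same order of populations. The probe sets disagreed on the place of the CX3CR1- cells, lowest in one and highest in the other. In both, the whole range was under 2-fold, 1.52-fold and 1.72-fold, so no order among the populations is set apart.

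Anxa2, whose product pairs with S100a10, was lower in the CX3CR1high macrophages alone. It stood at 6933 there, against 16744 in the CX3CR1- cells, 16012 in the CD11chigh DCs and 13886 in the CD11b+ cells. The CX3CR1high macrophages were 2.42-fold, 2.31-fold and 2.0-fold below these. That is the direction seen for S100a4 and S100a6. For S100a10 the probe sets disagreed. The CX3CR1high macrophages were 1.25-fold above the CX3CR1- cells in the first set and 1.72-fold below them in the other. Among all 8 annexin and annexin partner genes measured, 1 was higher (Anxa3) and 1 lower (Anxa2) in the CX3CR1high macrophages compared with the CX3CR1- cells, with a median log2 ratio of 0.18, and 8.56% and 6.54% of all genes were. Anxa3 had 2217 in the CX3CR1high macrophages, 978 for the CD11b+ cells, 911 for the CX3CR1- cells and 588 in the CD11chigh DCs. Against the CD11chigh DCs, 2 annexin and partner genes were higher (Anxa3 and Ahnak) and 3 lower (Anxa1, Anxa2 and Anxa6) in the CX3CR1high macrophages. Over all genes 17.4% were higher and 10.2% lower in that pair. Anxa1, the anti-inflammatory annexin, was highest in the CD11chigh DCs, at 10772 against 4686 to 5606 elsewhere. Ahnak, a giant scaffold that binds the pair of S100a10 and annexin A2, was lowest in the CD11chigh DCs, at 2869 against 7882 to 11329.

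Genes of the plasminogen system, which S100a10 serves at the cell surface, differed more widely than S100a10 itself. Plau, urokinase, was highest in the CX3CR1high macrophages at 683, against 203 in the CX3CR1- cells, 146 for the CD11b+ cells and 37.9 in the CD11chigh DCs. Its receptor Plaur was lowest in the CD11chigh DCs, at 1475 against 4914 to 6742. Serpinb2, an inhibitor of urokinase, stood at 3690 in the CX3CR1- cells, 1860 in the CD11b+ cells, 929 in the CX3CR1high macrophages and below the floor, at 31.7, in the CD11chigh DCs. Plat, tissue plasminogen activator, was highest in the CX3CR1- cells at 947, against 318 to 450. Of the 5 genes measured, 3 were higher and 0 lower in the CX3CR1high macrophages compared with the CD11chigh DCs, with a median log2 ratio of 2.19 where S100a10 had 0.30. Over all genes 17.4% were higher and 10.2% lower in that pair.

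S100a13 and S100a1, neighbours at one end of the gene cluster, complete the family. S100a13 had 2769 in the CD11b+ cells, 2085 in the CX3CR1high macrophages, 1705 in the CD11chigh DCs and 1127 in the CX3CR1- cells. No step between neighbours reached 2-fold, but the CD11b+ cells were 2.46-fold above the CX3CR1- cells, and 195 of 7377 genes were at least as far apart. The CX3CR1high macrophages were 1.85-fold above the CX3CR1- cells. Of its partners in export without a signal peptide, Fgf1 and Syt1 were below the floor on all arrays. Il1a, the cytokine interleukin 1 alpha, had 1028 in the CX3CR1high macrophages, 593 for the CD11b+ cells, 539 for the CX3CR1- cells and 174 in the CD11chigh DCs. Sphk1, sphingosine kinase, had 2100, 1120, 1214 and 478 in this order.

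S100a1 was highest in the CX3CR1high macrophages with both of its probe sets, by less than 2-fold. The brighter set, of the _s_at type, gave 1009 in the CX3CR1high macrophages, 625 for the CD11b+ cells, 618 in the CD11chigh DCs and 613 in the CX3CR1- cells. The other gave 450 in the CX3CR1high macrophages, 362 in the CD11chigh DCs, 252 for the CX3CR1- cells and 246 in the CD11b+ cells. The 3 lower populations were within 1.02-fold of each other in the first set and 1.47-fold in the second. The step from the CX3CR1high macrophages to the next population was 1.61-fold and 1.24-fold.

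Surface receptors to which S100 proteins are known to bind were measured as a list of 7 genes. Ager, which encodes RAGE, and Mcam were below the floor on all 4 arrays. Tlr4, the receptor of calprotectin on myeloid cells, had 395 in the CX3CR1high macrophages, 366 for the CD11b+ cells, 158 for the CX3CR1- cells and 46.4 in the CD11chigh DCs. The pair with the higher Tlr4 signals is the pair in which S100a8 and S100a9 were above the floor, although Tlr4 differed by only 1.08-fold within it. Cd36, a scavenger receptor, was highest in the CX3CR1high macrophages at 4876, with 2932 for the CD11chigh DCs, 1488 for the CD11b+ cells and 1004 for the CX3CR1- cells. Alcam, an adhesion molecule, was lowest in the CX3CR1high macrophages at 150, with 388 for the CD11b+ cells, 712 for the CX3CR1- cells and 1396 for the CD11chigh DCs. Nptn, neuroplastin, stayed within 1.57-fold over the 4 populations. In the CX3CR1high macrophages over the CX3CR1- cells, 2 of 5 receptor genes with a ratio were higher (Tlr4 and Cd36) and 1 was lower (Alcam), with a median log2 ratio of 0.65, against 8.56% and 6.54% of all genes.

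Calprotectin also aids the assembly of the phagocyte NADPH oxidase, the enzyme of the respiratory burst. Of its 5 measured subunit genes, 0 were called between the CD11b+ cells and the CX3CR1high macrophages, with a median log2 ratio of 0.16. With 5.83% of all genes higher and 4.66% lower in that pair, a count of 0 of 5 is near the background. Cybb, its catalytic subunit, was highest in the CX3CR1high macrophages at 608, with 363 for the CD11b+ cells, 184 for the CX3CR1- cells and 135 for the CD11chigh DCs. Ncf1, a cytosolic subunit, was lowest in the CX3CR1high macrophages at 553, with 770 for the CD11b+ cells, 1293 for the CX3CR1- cells and 1196 for the CD11chigh DCs. Ncf4 and Rac2 stayed within 2-fold in all pairs.

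**Figure D4:**
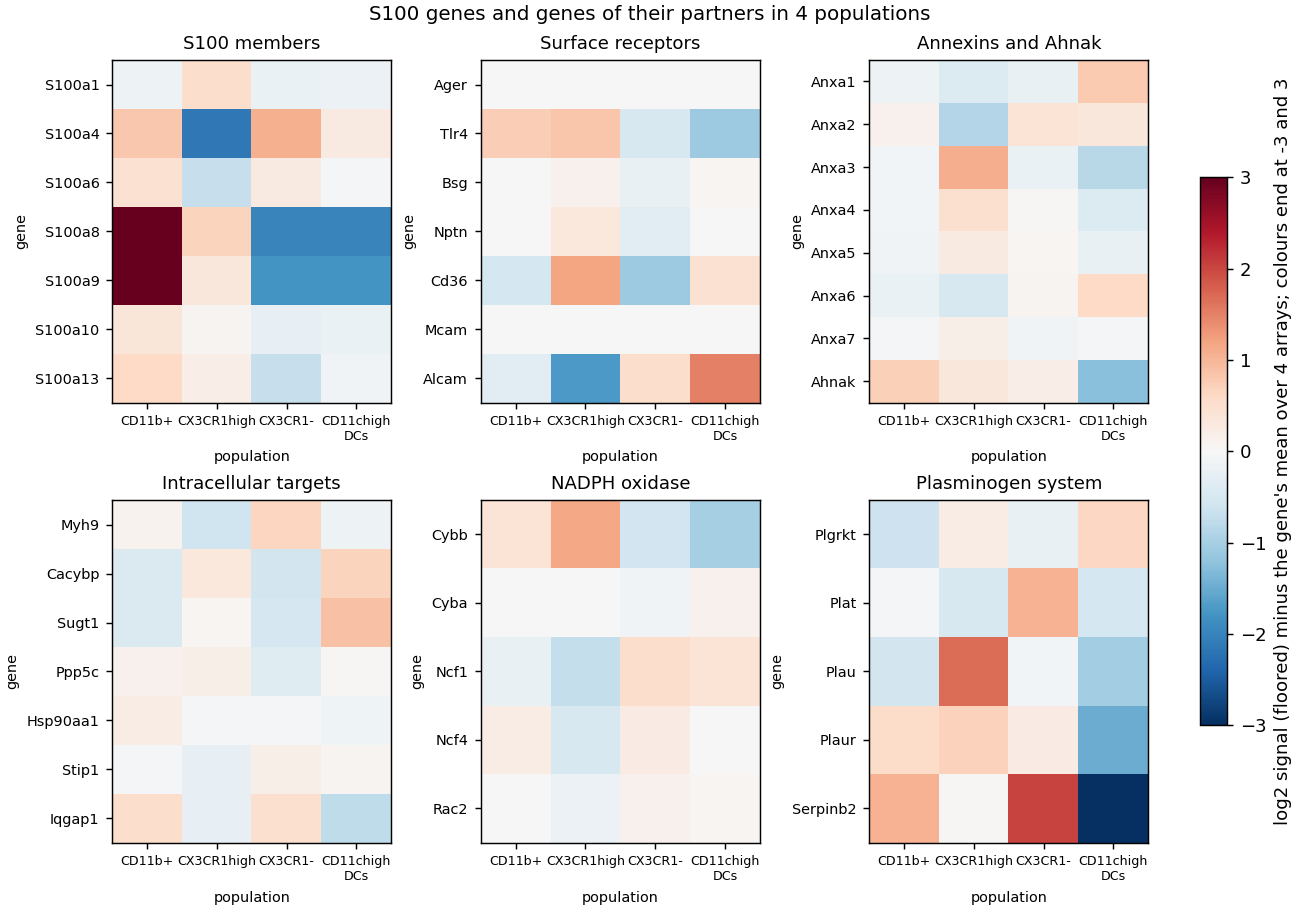
Floored log2 signals of the S100 genes and of 5 lists of partner genes, each minus the gene's mean over the 4 arrays, with colours ending at -3 and 3. S100a4, S100a6, Anxa2 and Myh9 have their lowest signal in the CX3CR1high macrophages, and Ager and Mcam are white, at 0, since they were below the floor on every array.

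Other S100 genes on the array were mostly dim. S100a3, S100a5 and S100b were below the floor on all arrays. S100a16 had 654 in the CX3CR1high macrophages, 509 for the CD11b+ cells, 455 for the CX3CR1- cells and 153 in the CD11chigh DCs, and was 4.27-fold, 3.32-fold and 2.97-fold above the CD11chigh DCs in the others. S100a14, at 147, and S100g, at 120, were above the floor in the CX3CR1high macrophages alone, by at least 1.43-fold and 1.17-fold. These 2 genes are known from epithelium, and the summed signal of epithelial markers, given above, was highest on the same array. The part of epithelial RNA in them was not tested. S100pbp, which encodes a protein that binds an S100 protein and is no S100 gene by structure, was 2.25-fold lower in the CX3CR1high macrophages (146) against the CX3CR1- cells (327).

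All 8 listed genes lie on chromosome 3 in the RefSeq gene table, as do 15 of its 18 S100 genes. From S100a1 to S100a9 the table lists 12 protein-coding genes in a row, all of them S100 genes. S100a11 and S100a10 are next to each other, with 56 other genes between them and S100a9. Neighbours were not all alike in signal. S100a8 and S100a9 are adjacent and differed by a root mean square of 0.21, a value partly fixed by the floor. S100a4 and S100a6, with S100a5 (below the floor on all arrays) between them, differed by 0.86. S100a1 and S100a13, also adjacent, differed by 0.49.

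The genes most like S100a4, S100a8 and S100a9, the 3 members that spanned at least 4-fold, were taken from 912 genes that also did, by the root mean square difference of centred profiles over 4 arrays. For S100a4 these were Tiam1, an activator of the GTPase Rac, at 0.45, Gramd4 at 0.47, Nbeal2 at 0.54, Ifitm6 at 0.54 and the uridine-cytidine kinase Uck2 at 0.56. Tiam1 had 1436 in the CX3CR1- cells, 1322 in the CD11chigh DCs, 829 in the CD11b+ cells and 206 in the CX3CR1high macrophages. All 5 genes had their lowest signal in the CX3CR1high macrophages, as S100a4 did. They were picked for likeness to S100a4 on these arrays, so this is no separate result.

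For S100a8 the closest genes were Chil3 at 0.71, the formyl peptide receptor Fpr2 at 0.96, Plpp3 at 1.05, Rarres2 at 1.06 and Mgp at 1.09. For S100a9 they were Chil3 at 0.80, Hp at 0.88, Rarres2 at 0.91, Fpr2 at 0.95 and Plpp3 at 0.95. None came as close to S100a8 as S100a9 did. Fpr2 had 1115 in the CD11b+ cells, 767 in the CX3CR1high macrophages, 162 for the CX3CR1- cells and 101 in the CD11chigh DCs. Rarres2, the chemoattractant chemerin, had 3400, 613, 548 and 204 in this order, and Mgp, a matrix protein, 7126, 1341, 1247 and 345. With 4 arrays, many genes share an order of populations, and the lists say nothing of shared control.

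**Figure D5:**
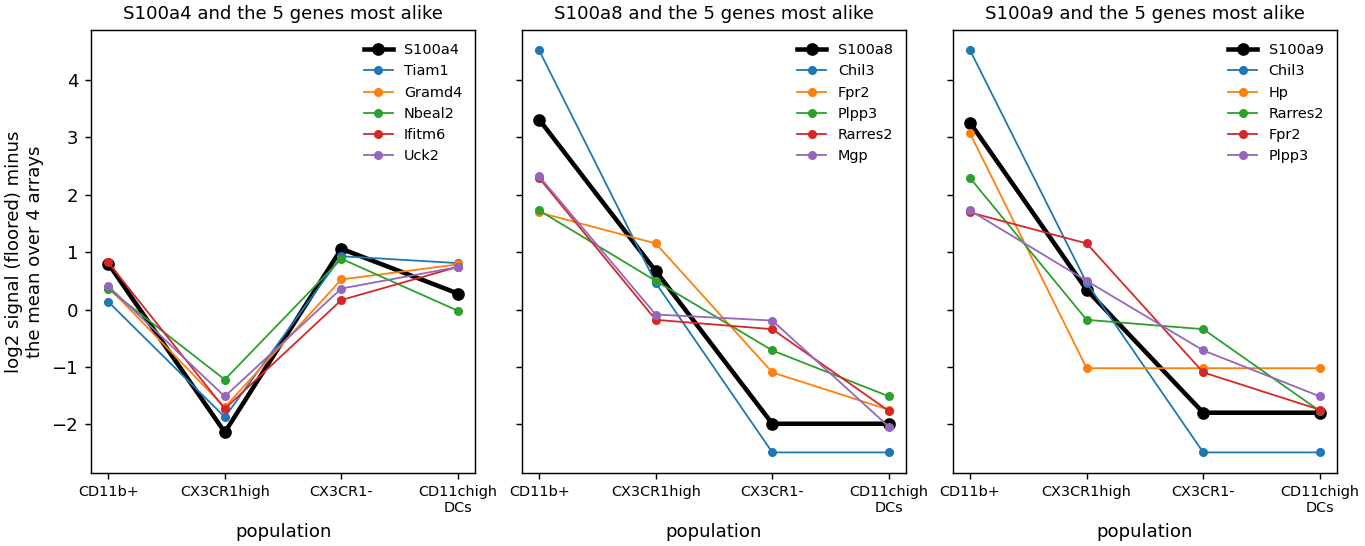
Floored log2 signals minus each gene's mean over the 4 arrays, for S100a4, S100a8 and S100a9 (black) and the 5 genes most like each (colours); lines only join points. The genes were picked for this likeness. Those like S100a4 share its low point in the CX3CR1high macrophages, and Chil3 follows S100a8 and S100a9 from the CD11b+ cells downwards.

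Control probe sets at both ends of a transcript give a 3′ to 5′ ratio, a measure of RNA integrity that is larger for degraded RNA, and it differed between arrays. Per the labels, only RNA with little degradation was used. For Gapdh it was 2.17 in the CD11b+ cells, 1.08 in the CX3CR1high macrophages, 3.4 for the CX3CR1- cells and 0.791 in the CD11chigh DCs. For Actb it was 3.18, 1.68, 2.76 and 1.11 in this order. Both ratios were higher in the CD11b+ cells and the CX3CR1- cells, which also had the highest S100a4 and S100a6 signals. The Actb ratio was highest on the CD11b+ array, as were S100a8 and S100a9. The part of RNA quality in these results was not tested.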

How the data were processed

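Each population's RNA was hybridised to 1 Affymetrix 3′ array after biotin labelling, per the labels. The authors deposited 1 linear intensity per probe set. Signals came from MAS5, per the submitters' processing notes, and its version and a genome build are not given in the sources used here. No further normalization was applied. Of 22690 probe sets, 20380 named 1 gene, and for each gene the set with the highest mean log2 signal was used, sets ending in _x_at only where no other existed. All probe sets of S100 genes are given.

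The floor, the 2-fold limit, 19 gene lists and 8 alternatives were set down with earlier results of these data known, as were the members. Up to 4 genes per list could be named, those with the widest range over the arrays, with Tlr4, Anxa2 and the other S100 genes, and not all of these are. Outside this rule, Ager, Mcam, Anxa6, Elane, Mpo, Cxcr2, Mmp8 and Plac8 were named after their values were seen. Likeness took the 5 closest genes, leaving out Riken, Gm and LOC names. Promoters are RefSeq's on GRCm38.p6, with an entry for 7 of the 8 genes; S100a10 had none. The ratio and call steps were tested on simulated data. Calculations used Python 3.11.15, numpy 2.4.6 and pandas 2.3.3. With 1 array per population no test was possible.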

Additional observations from a re-analysis of the deposited data

How the results depend on the processing

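Ratios of the S100 genes were recomputed under 8 alternatives: quantile normalization, arrays set to equal medians, no floor, a floor moved to the 25th or the 75th percentile of all signals, a pseudocount of the 25th percentile in its place, all probe sets of a gene averaged, and probe sets of shared types left out. Of 309 such ratios, 273 stayed within the SD between probe sets of their pair, 36 moved beyond it and 0 called ones changed sign. With the floor at the 75th percentile, the S100 genes called higher in the CX3CR1high macrophages went from 2 to 0, both against the CX3CR1- cells and against the CD11chigh DCs, as S100a8 (651) and S100a9 (454) then lay at most 1.44-fold above the floor of 453. With equal medians, the count lower in the CX3CR1high macrophages against the CX3CR1- cells went from 1 to 2, S100a6 passing the limit. Without shared probe sets S100a6 and S100a8 dropped out, leaving 5 genes. The count higher in the CD11b+ cells then went from 4 to 2 against the CX3CR1high macrophages and from 2 to 1 against the CD11chigh DCs. Those higher in the CX3CR1high macrophages went from 2 to 1 against both the CX3CR1- cells and the CD11chigh DCs, and the genes with their highest signal in the CD11b+ cells from 5 to 3. No paired analysis was possible because each population had 1 array. Bounds of S100a8 and S100a9 depend on the floor by construction, and signals near it limit how far a ratio can reach.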

Other observations

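Other calcium-binding proteins with EF-hands, 7 of them measured, had narrower ranges than S100a4, S100a8 and S100a9, the S100 genes with the widest ranges. The remaining listed S100 genes with a probe set were S100a1, S100a6, S100a10 and S100a13. They spanned 1.52-fold (S100a10) to 2.46-fold (S100a13), no wider than the 2.83-fold of Sri. Outside the list, S100a16 spanned 4.27-fold, wider than Sri. Between the CD11b+ cells and the CX3CR1high macrophages 0 of the 7 other EF-hand genes were at least 2-fold apart. This is near the background of 5.83% higher and 4.66% lower. Sri, sorcin, was highest in the CD11chigh DCs at 4632, with 2063 for the CX3CR1- cells, 1876 for the CX3CR1high macrophages and 1635 for the CD11b+ cells. Lcp1, the actin-bundling protein L-plastin, stood at 14250 in the CX3CR1- cells, 12518 in the CD11chigh DCs, 8794 in the CD11b+ cells and 6655 in the CX3CR1high macrophages, which were 2.14-fold below the CX3CR1- cells. Pdcd6, which takes part in membrane repair, had 2624 in the CD11chigh DCs and 1242 to 1471 elsewhere. Aif1, the macrophage protein also called Iba1, had 6764 in the CX3CR1high macrophages, 6279 in the CD11chigh DCs, 4261 for the CD11b+ cells and 3785 for the CX3CR1- cells, a range under 2-fold.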
